A study of Alligator mississippiensis with 4 samples.

Results

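The genes described here are those whose difference between dorsal and ventral dermis of alligator embryonic scales was not the same at the earlier stage sampled, that of placodes (Es19), and the later, that of buds (Es22). For each row of the deposited table that averaged at least 1 CPM over the libraries (CPM being a read count scaled to library size), the log2 ratio of dorsal to ventral CPM, with 1 added to each value, was computed at both stages. The value at Es22 was then subtracted from the value at Es19, and a row was kept where this change reached 1 in size, which is a 2-fold change of the ratio. Of 10466 rows, 10236 had the required mean and 838 of them (8.19%) were kept, 652 of these with a gene symbol. A positive change stands for a ratio that was higher at Es19 and a negative one for a ratio that was higher at Es22. The members were chosen by these same values, so all of the values below are a description of the libraries and none carries a test.

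Dermis of overlapping scales was freed of its epidermis and taken from the back (dorsal) and the belly (ventral) of untreated *Alligator mississippiensis* embryos from fertilized eggs. The 4 groups were the dorsal and the ventral dermis of each of the stages Es19 and Es22, and the labels give 1 library for each and neither the age, the sex nor the number of embryos. With 1 library per group the change of a region difference between stages has 0 residual degrees of freedom, so it cannot be set against the spread between embryos. Where an interval is given beside a ratio it is an exact binomial 95% interval on the reads recovered from the CPM values. It covers counting error only and not the spread between embryos. PCR copies are not independent molecules, so the interval can be too narrow even for counting error.

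Scales start as placodes, thickenings of the epidermis over a dermis that receives and sends signals, and then grow into buds whose outgrowth depends on the dermis below. Hedgehog, WNT, Notch, BMP and retinoic acid signals pass between these layers, and several of their receptors and inhibitors are themselves targets of the pathway, so that their transcript levels follow the signal. In chick, dermis of the back and of the belly arises from different embryonic sources and carries different positional transcription factors, while vessels, blood, nerves, pigment cells and the underlying muscle reach or adjoin it during the same period.

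The table held 10722077 to 13220854 reads per library, so that 1 read was worth 0.0679 to 0.103 CPM and a count of 0 allows up to 3 reads, or 0.204 to 0.310 CPM. The labelled tissue was checked against dermal genes. The type I collagen chain COL1A1 stood between 49609 and 244337 CPM and lumican (LUM), a collagen-binding proteoglycan of dermis, between 1844 and 11123 CPM, while decorin (DCN) was no higher than 5.19 CPM in any library.

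The change of the ratio had a median of 0.01 over all rows and a standard deviation of 0.61 across rows. The ratio was higher at Es19 in 341 rows (3.33% of 10236) and higher at Es22 in 497 rows (4.86%), and it changed by at least 2 in size in 122 rows (1.19%). The counts by list below can be read against these shares, or against 8.19% for both directions together. The kept rows had a lower median level than all rows, with a median of the mean CPM of 8.03 against 21.0, and lower levels give larger differences from counting error alone. In 698 of the 838 rows (6.82% of all rows) the counting intervals of the ratios at Es19 and Es22 did not overlap. These 698 are part of the rows with intervals apart, which were 3017 of all 10236 rows (29.5%). Both percentages are of all 10236 rows, so neither is the share among the 838 kept rows. Just inside the threshold lay KLHL29 (1.002) and MAZ (1.005) on the positive side and NOV (-1.003) and MFAP5 (-1.004) on the negative side. Just outside it lay GATM and EYA2 (both 0.997), UPP1 (-0.992) and MKX (-0.987).

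**Figure D1:**
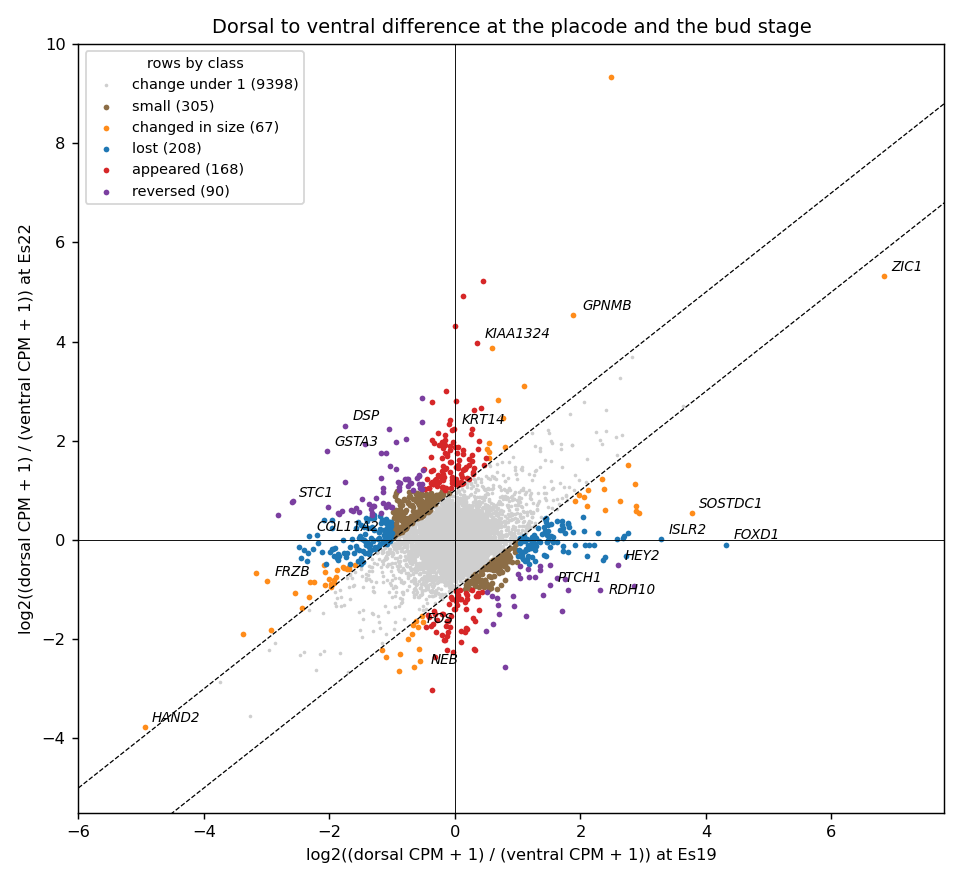
Each point is 1 row of the table, placed by its log2 dorsal to ventral difference at Es19 (horizontal) and at Es22 (vertical), with 1 added to each CPM value. Colours give the class of change, grey rows lie within the dashed lines where the change is under 1, and the 208 lost and 168 appeared differences lie along the horizontal and the vertical axis.

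A log2 difference of at least 1 between the regions was present in 554 rows (5.41%) at Es19 and in 474 rows (4.63%) at Es22. The members were divided by what happened to the difference, with a log2 difference of at least 1 taken as present and one under 0.5 as absent. A difference seen at Es19 was absent at Es22 in 208 rows (2.03%), of which 93 were higher in dorsal and 115 higher in ventral dermis at Es19. A difference absent at Es19 was present at Es22 in 168 rows (1.64%), of which 109 were higher in dorsal and 59 in ventral dermis. In 90 rows (0.879%) the direction was opposite at the 2 stages, with at least 0.5 at both and at least 1 in at least 1 of them. In 15 of these rows it was at least 1 at both stages. The difference kept its direction but changed in size in 67 rows (0.655%). In 305 rows (2.98%) it was under 1 at each stage and passed the threshold only as a sum. These 305 were opposite in direction at the 2 stages too, since 2 values under 1 in size cannot otherwise differ by 1. By contrast 109 rows were at least 2-fold apart, and alike in direction, at each of the stages, and 92 of these changed by less than 1 and are not described further.

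The region whose level moved more between stages was not the same in every class. Of the 497 rows with a ratio higher at Es22, 374 moved more in dorsal dermis, where they were higher at Es22, and 123 moved more in ventral dermis, where they were lower. Of the 341 rows with a ratio higher at Es19, 199 moved more in ventral dermis, where they were higher at Es22, and 142 moved more in dorsal dermis, where they were lower. Whether the larger move is a rise or a fall follows by arithmetic from the direction of the change, so only the split by region is a result. In 214 members (25.5%) a single library stood at least 1 log2 unit from the other 3 while these lay within 1 of each other. This library was Es19 dorsal at a low value in 47 rows, Es19 ventral at a low value in 41 and Es22 dorsal at a high value in 40. For such rows the change rests on that library. Over all 10236 rows, 9937 had no such library, and the 3 forms named were found in 63, 56 and 63 rows. Most rows of these forms were thus kept, which follows largely from the rule, since a single library apart goes far to fix the change.

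**Figure D2:**
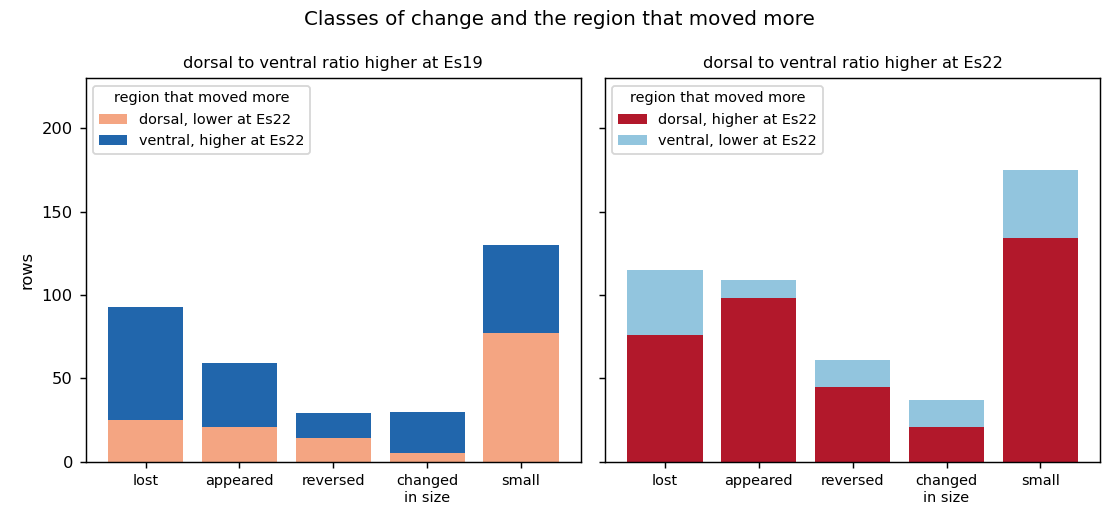
Bars give the number of rows in each class for a ratio higher at Es19 (left) and higher at Es22 (right), and colours give the region in which the level moved more between stages and its direction. Appeared differences with a ratio higher at Es22 came mostly from dorsal dermis, in 98 of 109 rows, and lost differences with a ratio higher at Es19 mostly from ventral dermis, in 68 of 93 rows.

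The largest change toward Es19 among all rows belonged to FOXD1, a forkhead transcription factor. Pairs of CPM values are given with dorsal before ventral dermis and Es19 before Es22. FOXD1 had 179 CPM in dorsal against 8.01 CPM in ventral dermis at Es19, then 123 against 132 CPM at Es22. Ventral dermis at Es19 was thus the only low library. The dorsal to ventral ratio was 22.4 (95% interval 18.6 to 27.1) at Es19 and 0.934 (0.864 to 1.01) at Es22, a change of 4.42 in log2. Ventral FOXD1 was 16.5 times as high at Es22 as at Es19, while dorsal FOXD1 was 0.690 times as high.

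Several other dorsal genes of Es19 had the same form, with a low value in Es19 ventral dermis and near-equal values in both regions later. SOSTDC1, a secreted modulator of BMP and WNT signals, had 466 CPM in dorsal against 33.1 CPM in ventral dermis at Es19, then 534 against 367 CPM at Es22. Its ratio went from 14.1 (12.8 to 15.5) to 1.45 (1.39 to 1.52), so that a small dorsal excess was kept. NFATC1, a transcription factor controlled by calcineurin, had 208 against 31.2 CPM at Es19 and 126 against 119 CPM at Es22, and its relative NFATC2 33.5 against 6.45 CPM and then 32.6 against 35.0 CPM. Both had a dorsal to ventral ratio above 5 at Es19, at 6.67 and 5.20, and a counting interval that included 1 at Es22. The collagen COL19A1 was present as a pair of rows, with 15 and 1.49 CPM at Es19 and 27.0 and 26.3 CPM at Es22 in the first of them, and changes of 2.65 and 2.56. ISLR2, a transmembrane protein of developing axons, differed from these in that Es19 dorsal dermis was the single high library, with 106 against 9.97 CPM at Es19 and 15.8 against 15.6 CPM at Es22 (change 3.27).

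**Figure D3:**
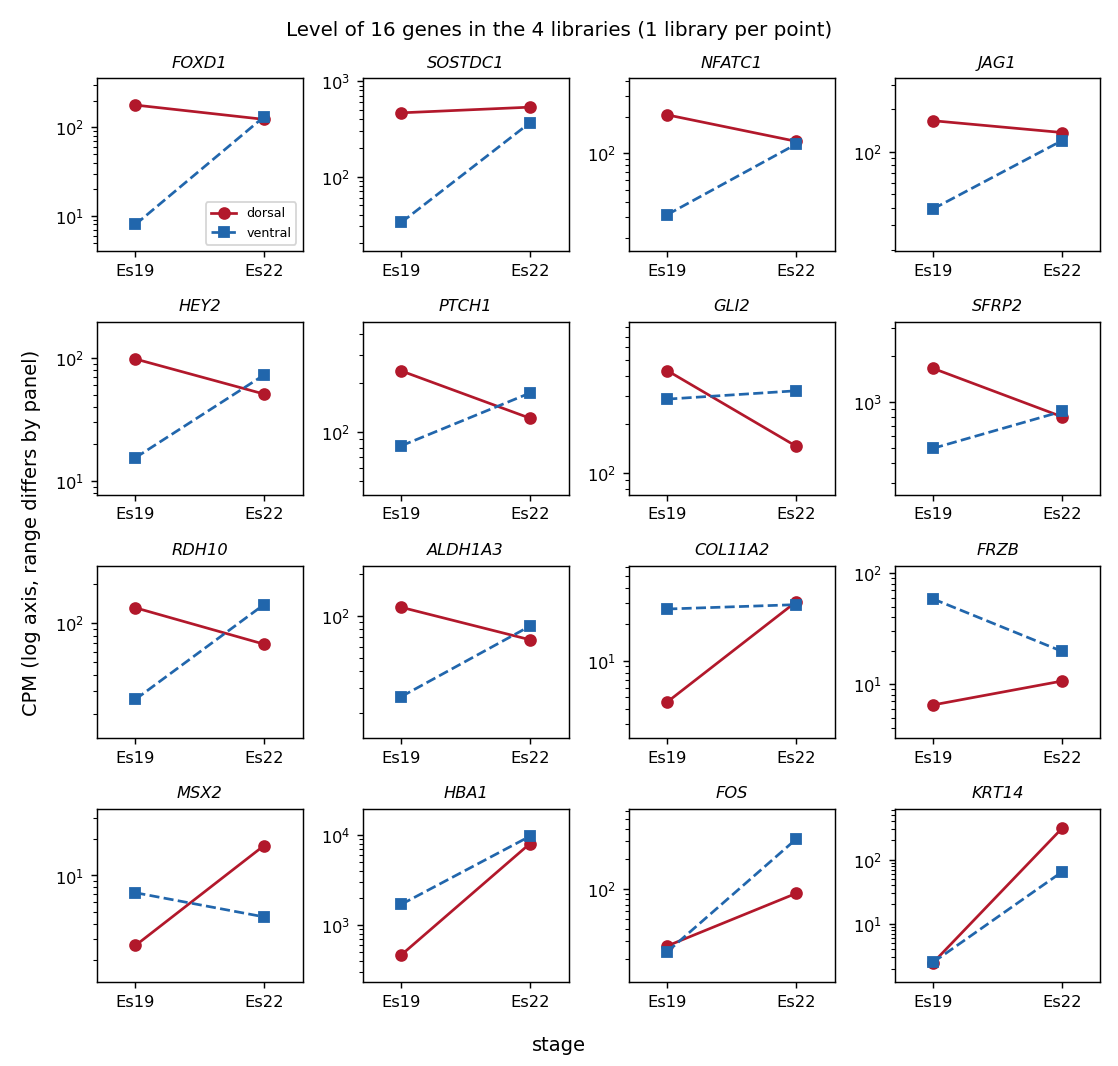
Each panel gives the CPM of 1 gene on a log axis in dorsal (red circles) and ventral (blue squares) dermis at Es19 and Es22, with 1 library per point and so no error bars. The lines of FOXD1, SOSTDC1, NFATC1, JAG1 and SFRP2 meet or nearly meet at Es22, those of HEY2, PTCH1, GLI2, RDH10, ALDH1A3 and MSX2 cross, and those of FOS and KRT14 part.

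Notch genes were among them. Notch receptors are activated by ligands on neighbouring cells, and the HEY factors are transcribed in response. Of 10 Notch genes with a row, 4 had a ratio higher at Es19 by the threshold and 0 a ratio higher at Es22. That is 40% of the list, against 8.19% of all rows. The ligand JAG1 had 166 CPM in dorsal against 39.2 CPM in ventral dermis at Es19, then 137 against 120 CPM at Es22 (change 1.86). HEY2 had 98.4 against 15.5 CPM at Es19 and 51.0 against 72.9 CPM at Es22, which turned a ratio of 6.36 (5.52 to 7.35) into 0.699 (0.624 to 0.784). HEY1 (change 1.78) and HEYL (1.07) had the same direction. The receptor NOTCH2, at 289 to 389 CPM in the 4 libraries, changed by 0.44, and the other ligands with a row, DLL1 and DLL4, by -0.27 and -0.49. The median change over the Notch list was 0.72, against 0.01 over all rows.

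Among hedgehog genes, 3 were higher in dorsal dermis at Es19 and in ventral dermis at Es22. Hedgehog ligands bind patched receptors and release GLI factors, and PTCH1, GLI1 and HHIP are transcribed where the pathway is active. The receptor PTCH1 had 238 CPM in dorsal against 82.3 CPM in ventral dermis at Es19, then 122 against 174 CPM at Es22. Its ratio was 2.89 (2.70 to 3.09) at Es19 and 0.700 (0.650 to 0.753) at Es22, a change of 2.03. GLI1 had 84.2 against 52.7 CPM and then 25.9 against 59.9 CPM (1.84), and GLI2 431 against 287 CPM and then 147 against 323 CPM (1.72). The receptor moved in both regions, while for GLI1 and GLI2 ventral dermis was nearly level, at 1.14 and 1.13 times its Es19 value, and dorsal dermis was at 0.308 and 0.341 times.

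The rest of the hedgehog list did not share this. HHIP, a decoy receptor, was higher in dorsal dermis at both stages, with 78.5 against 29.8 CPM and then 67.7 against 48.9 CPM, and its change of 0.91 lay just under the threshold. The co-receptors CDON (-0.14), GAS1 (0.15) and BOC (0.35) and the ligand transporter DISP1 (-0.49) changed by less than 0.5 in size. Thus 3 of the 8 hedgehog genes described passed the threshold (37.5%, against 8.19% of all rows), 3 toward Es19 and 0 toward Es22. The median change over the list was 0.63. The summed CPM of the list was 1319 in dorsal against 1090 in ventral dermis at Es19, then 725 against 1047 at Es22.

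A similar crossing was seen for RDH10 and, less far, for ALDH1A3, enzymes that make retinoic acid. At Es22 the log2 difference was -1.01 for RDH10, classed as reversed, and -0.32 for ALDH1A3, classed as lost. RDH10, which oxidises retinol to retinaldehyde, had 132 CPM in dorsal against 25.8 CPM in ventral dermis at Es19, then 68.9 against 140 CPM at Es22. The ratio was 5.11 (4.57 to 5.72) at Es19 and 0.493 (0.450 to 0.541) at Es22, a change of 3.32. ALDH1A3, which oxidises retinaldehyde to retinoic acid, had 115 against 26.2 CPM and then 67.3 against 84.5 CPM (2.42). Es19 ventral dermis was the lowest library for both enzymes. A second enzyme of that step, ALDH1A2, was higher in ventral dermis at both stages, with 3.87 against 34.5 CPM and 6.53 against 30.8 CPM (-0.78). The receptor RARB changed the other way, from 8.82 against 27.6 CPM to 10.1 against 13.8 CPM (-1.12), and RARG stayed between 107 and 128 CPM. Of 10 retinoic acid genes with a mean of at least 1 CPM, 2 passed toward Es19 and 1 toward Es22. That is 30% in all, against 8.19% of all rows.

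The WNT list split by direction. Of 44 genes with a mean of at least 1 CPM, 9 had a ratio higher at Es19 and 6 a ratio higher at Es22. The median change was 0.20. Those past the threshold were 34.1% of the list, against 8.19% of all rows. Secreted inhibitors and modulators were found on both sides. SFRP2, a secreted frizzled-related protein, had 1649 CPM in dorsal against 500 CPM in ventral dermis at Es19, then 802 against 867 CPM at Es22 (1.83), and the WNT inhibitor APCDD1 733 against 356 CPM and then 328 against 343 CPM (1.11). Both had a dorsal difference at the placode stage that was absent at the bud stage. WNT5A, a ligand, had 427 against 253 CPM and then 329 against 440 CPM (1.17), with dorsal dermis higher first and ventral dermis higher later. DKK1, which blocks LRP co-receptors, was higher in ventral dermis throughout and more so at Es22, with 76.0 against 142 CPM and then 10.8 against 72.6 CPM (1.76).

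On the other side of the WNT list, FRZB, another secreted frizzled-related protein, had 6.50 CPM in dorsal against 58.7 CPM in ventral dermis at Es19, then 10.7 against 19.8 CPM at Es22 (-2.16). The ventral excess was 9.03-fold (7.21 to 11.4) at Es19 and 1.86-fold (1.46 to 2.37) at Es22. R-spondins amplify WNT signals through LGR receptors, and members of both families were in the list. RSPO1 had 7.28 against 31.0 CPM and then 16.8 against 12.5 CPM (-2.35), and RSPO3 46.9 against 39.9 CPM and then 41.0 against 12.5 CPM (-1.41). LGR5 had 12.5 against 6.99 CPM and then 26.5 against 4.02 CPM (-1.69). RSPO3 and LGR5 thus had a larger dorsal excess at Es22, at 3.29-fold (2.68 to 4.06) and 6.59-fold (4.70 to 9.47). LGR6 went the other way, from a 14.1-fold (8.18 to 26.3) to a 1.62-fold (1.07 to 2.48) dorsal excess (change 2.31).

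BMP family ligands were in both directions. GDF10 had 52.5 CPM in dorsal against 15.7 CPM in ventral dermis at Es19, then 175 against 152 CPM at Es22, so a 3.35-fold excess was nearly absent at the higher levels of the later stage (1.48). BMP6 had 10.3 against 3.39 CPM and then 6.63 against 10 CPM (1.89), and BMP3 40.2 against 30.5 CPM and then 13.9 against 38.7 CPM (1.80), where Es22 dorsal dermis was the single low library. BMP8A had one of the largest changes toward Es22 at -3.33, with 1.47 against 16.5 CPM at Es19 and 6.44 against 4.23 CPM at Es22. BMP2, 109 against 131 CPM and then 46 against 51.4 CPM, changed by only -0.11. Of 30 BMP and TGF-beta genes with a row, 3 passed in each direction (20% in all, against 8.19% of all rows). Their median change was -0.11. For FGF genes the count was 2 toward Es19, FGF10 (1.15) and ETV1 (1.3), and 1 toward Es22, FGF12 (-1.02), among 16 (18.8% in all). FGF12 was low in every library, with 0.619 against 2.44 CPM and then 2.21 against 2.37 CPM.

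Among positional transcription factors, 13 of 60 with a row passed toward Es19 and 9 toward Es22, with a median change of 0.25. Together these were 36.7% of the list, against 8.19% of all rows. LMX1B, a LIM homeobox factor known from dorsal limb mesenchyme of mouse and chick, had 37.4 CPM in dorsal against 9.97 CPM in ventral dermis at Es19, then 20.6 against 24.7 CPM at Es22 (2.06). PRRX2 (1.36), ALX4 (1.61) and TWIST1 (1.29), factors of mesenchyme, were higher in dorsal dermis at Es19 and higher in ventral dermis at Es22. None of their Es22 log2 differences reached 1 in size, with -0.29 for PRRX2, -0.81 for ALX4 and -0.42 for TWIST1. ALX4, for example, had 85.0 against 48.4 CPM and then 41.2 against 73.1 CPM. The homeobox factors MSX1 and MSX2, which respond to BMP, were higher in ventral dermis at Es19. MSX1 had 4.49 against 14.7 CPM and then 10.5 against 9.90 CPM (-1.59), and MSX2 2.63 against 7.19 CPM and then 17.7 against 4.54 CPM (-2.93), which made MSX2 the factor of this list with the largest change toward Es22.

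Of 20 Hox genes with a row, 3 (15%, against 8.19% of all rows in both directions) passed toward Es19 and 0 toward Es22. These were HOXC10 (54.0 and 18.2 CPM, then 33.6 and 64.0 CPM, change 2.43), HOXC11 (45.0 and 19.3 CPM, then 18.5 and 31.7 CPM, 1.92) and HOXB3 (96.3 and 80.0 CPM, then 33.5 and 60.0 CPM, 1.09). HOXC10 and HOXC11, neighbours that set posterior position, were higher in dorsal dermis at Es19 and in ventral dermis at Es22. The factor RUNX3 had the same form, with 83.8 and 24.1 CPM at Es19 and 28.3 and 49.9 CPM at Es22, and its ratio went from 3.48 (3.08 to 3.93) to 0.568 (0.489 to 0.657). HAND2, whose difference changed in size and not in direction, stood at 2.71 against 113 CPM and 7.30 against 113 CPM (-1.17). SHOX (0.28) and SIM2 (0.15), which like HAND2 had their higher level in ventral dermis each time, did not pass.

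Cues for axons and cells followed neither direction as a group, with 4 of 33 axon guidance genes toward Es19 and 3 toward Es22. Together these were 21.2% of the list, against 8.19% of all rows. The secreted ligand SLIT2 had 290 CPM in dorsal against 81.5 CPM in ventral dermis at Es19, then 190 against 159 CPM at Es22 (1.56), while the receptor-family member ROBO3 had 37.3 against 139 CPM and then 14.9 against 19.5 CPM (-1.51). NXPH1, a secreted ligand of neurexins, had 30.0 against 3.60 CPM and then 8.93 against 8.05 CPM (2.62).

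The ventral excess of the genes described next was present at Es19 and was absent, smaller or reversed at Es22. COL11A2, a fibrillar collagen chain, had 4.57 CPM in dorsal against 26.9 CPM in ventral dermis at Es19, then 30.7 against 29.2 CPM at Es22. Here Es19 dorsal dermis was the single low library, and the ventral excess went from 5.88-fold (4.47 to 7.87) to 0.95-fold (0.806 to 1.12). TFPI2, an inhibitor of serine proteases in matrix, had the same form with 8.75 and 43.8 CPM and then 49.9 and 46.7 CPM (-2.29). The secreted proteases HTRA3 and PLAT, the tissue plasminogen activator, stood at 40.6 against 172 CPM and 19.7 against 77.2 CPM at Es19, and at 311 against 433 CPM and 28 against 35.1 CPM at Es22. IGFBP2, which binds insulin-like growth factors, had 15.3 against 43.0 CPM and then 46.6 against 42.5 CPM (-1.56). CD55, a membrane protein that limits complement, went in 1 of its 2 rows from a 13.2-fold (8.79 to 20.6) to a 1.61-fold (1.36 to 1.92) ventral excess. For STC1, a secreted glycoprotein, the direction was reversed, with 2.09 against 17.7 CPM and then 5.57 against 2.89 CPM (-3.36).

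The share of matrix genes that passed differed by list and can be read against the 8.19% of all rows. Of 33 genes of fibrillar and other collagens and their processing, 0 passed toward Es19 and 2 toward Es22, COL8A2 (-1.96) and COL15A1 (-1.33). COL1A1 changed by 0.90 and COL1A2 by 0.57, with a dorsal to ventral ratio that was higher at Es19 in both. Among elastic fibre and other glycoproteins, 2 of 27 passed toward Es19 and 3 toward Es22. EMILIN3 had 844 against 272 CPM and then 1669 against 1273 CPM (1.24), and THBS3, a thrombospondin, 225 against 184 CPM and then 102 against 304 CPM (1.85). TGFBI, a matrix adhesion protein, had 1110 against 949 CPM and then 1948 against 827 CPM (-1.01), a dorsal difference present only at the bud stage. Of 24 proteoglycan genes, 2 passed toward Es19, BCAN (1.36) and SPOCK3 (1.01), and 4 toward Es22, SPOCK1 (-2.33), CHAD (-1.69), KERA (-1.48) and GPC3 (-1.32). Of 32 genes of matrix proteases and their inhibitors, 0 passed toward Es19 and 7 toward Es22, among them HTRA3, PLAT and PRSS35 (-1.65).

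The ventral differences that appeared at Es22 included those of skeletal muscle genes. Of 33 contractile genes with a row, 21 had a ratio higher at Es19 and 0 a ratio higher at Es22 (63.6%, against 8.19% of all rows). Of these 21 differences, 12 were classed as appeared, 4 as changed in size, 2 as reversed and 3 as under 1 at each stage. At Es22, 31 of 33 were lower in dorsal than in ventral dermis. Nebulin (NEB), a thin filament protein, had 17.9 CPM in dorsal against 14.3 CPM in ventral dermis at Es19, then 13.5 against 65.5 CPM at Es22 (2.5). The skeletal actin ACTA1 had 45.6 against 49.5 CPM and then 66.6 against 208 CPM (1.51), and the muscle creatine kinase CKM 10.3 against 11.5 CPM and then 43.2 against 147 CPM (1.60). The 2 regions were close at Es19 and Es22 ventral dermis was the highest library in all 3 genes. MYH7, the slow myosin heavy chain, differed from them in that it was also apart at Es19, with 49.5 and 14.5 CPM and then 27.2 and 75.2 CPM (3.14). MYL1 and TNNI2 were already higher in ventral dermis at Es19, with 7.20 against 17.8 CPM and 5.26 against 11.3 CPM. Their changes were 0.59 and 0.82. At Es19, 19 of the 33 were lower in dorsal dermis and 14 higher.

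The summed CPM of the muscle list was 344 in dorsal against 370 in ventral dermis at Es19, then 693 against 2217 at Es22, and its median log2 difference went from -0.10 at Es19 to -1.49 at Es22. In bulk dermis fewer cells of a type and less RNA per cell cannot be told apart. The 9 myogenic regulators with a row held 3 with a ratio higher at Es19, among them CHRNA1, a subunit of the muscle acetylcholine receptor, with 1.93 and 2.17 CPM and then 2.11 and 10.3 CPM. MYOG and MSC were already higher in ventral dermis at Es19, with 1.32 against 5.36 CPM and 1.32 against 4.75 CPM. They changed by -0.05 and 0.18. At Es19, 6 of the 9 were lower in dorsal dermis and 3 higher.

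Immediate-early genes, which are transcribed soon after a stimulus without new protein synthesis, were higher in the same library. Of 34 with a row, 8 passed toward Es19 and 2 toward Es22 (29.4% in all, against 8.19% of all rows). Their median log2 difference went from -0.18 at Es19 to -0.66 at Es22. FOS had 27.1 CPM in dorsal against 23.7 CPM in ventral dermis at Es19, then 90.6 against 315 CPM at Es22, FOSB 6.04 against 6.92 CPM and then 20.1 against 84.8 CPM, and the orphan receptor NR4A1 33.6 against 37.6 CPM and then 78.0 against 319 CPM. The ventral excess at Es22 was 3.48-fold (3.23 to 3.75), 4.22-fold (3.62 to 4.94) and 4.09-fold (3.78 to 4.42) in that order, and at Es19 each interval included 1. Not every such gene took part: JUN, which was already higher in ventral dermis at Es19 (119 and 187 CPM, then 124 and 266 CPM), changed by 0.45, KLF2 by 0.01, and BTG1 (-1.07) and SGK1 (-1.45) went the other way. The muscle list was highest in Es22 ventral dermis as well, and the part of either list in the other was not tested.

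The dorsal differences that appeared at Es22 included genes of epithelium. Of 22 epidermal keratin and junction genes with a row, 11 had a ratio higher at Es22 and 0 a ratio higher at Es19, although the dermis had been separated. That is 50% of the list, against 8.19% of all rows. Of these 11 differences, 9 were classed as appeared and 2 as reversed. The keratin KRT15 had 12.2 CPM in dorsal against 14.9 CPM in ventral dermis at Es19, then 416 against 93.0 CPM at Es22 (-2.42). KRT8, a keratin of simple epithelium and periderm, had 4.72 against 11.2 CPM and then 96.5 against 27.8 CPM (-2.85), and desmoplakin (DSP), which anchors keratins to desmosomes, 0.851 against 5.22 CPM and then 19.7 against 3.20 CPM (-4.05). Es22 dorsal dermis was the highest library for all 3, and KRT8 and DSP were higher in ventral dermis at Es19.

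The summed CPM of the epidermal list was 535 in dorsal against 463 in ventral dermis at Es19, then 1872 against 856 at Es22. Of these sums JUP alone held 349 against 337 CPM at Es19, then 449 against 410 CPM at Es22. No gene of it with a row was listed at 0 in any library, but only 1 to 10 of all 10466 rows were at 0 in a library. Some members were near the floor at Es19, such as COL17A1 with 0.0774 and 0.0679 CPM, the value of 1 read in each. The transcription factors KLF5 (68.6 and 21.6 CPM, then 163 and 91.0 CPM) and TFAP2C (26.0 and 4.41 CPM, then 71.4 and 16.9 CPM) and the junction protein JUP (337 to 449 CPM) did not pass the threshold, with changes of 0.79, 0.31 and -0.08.

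**Figure D4:**
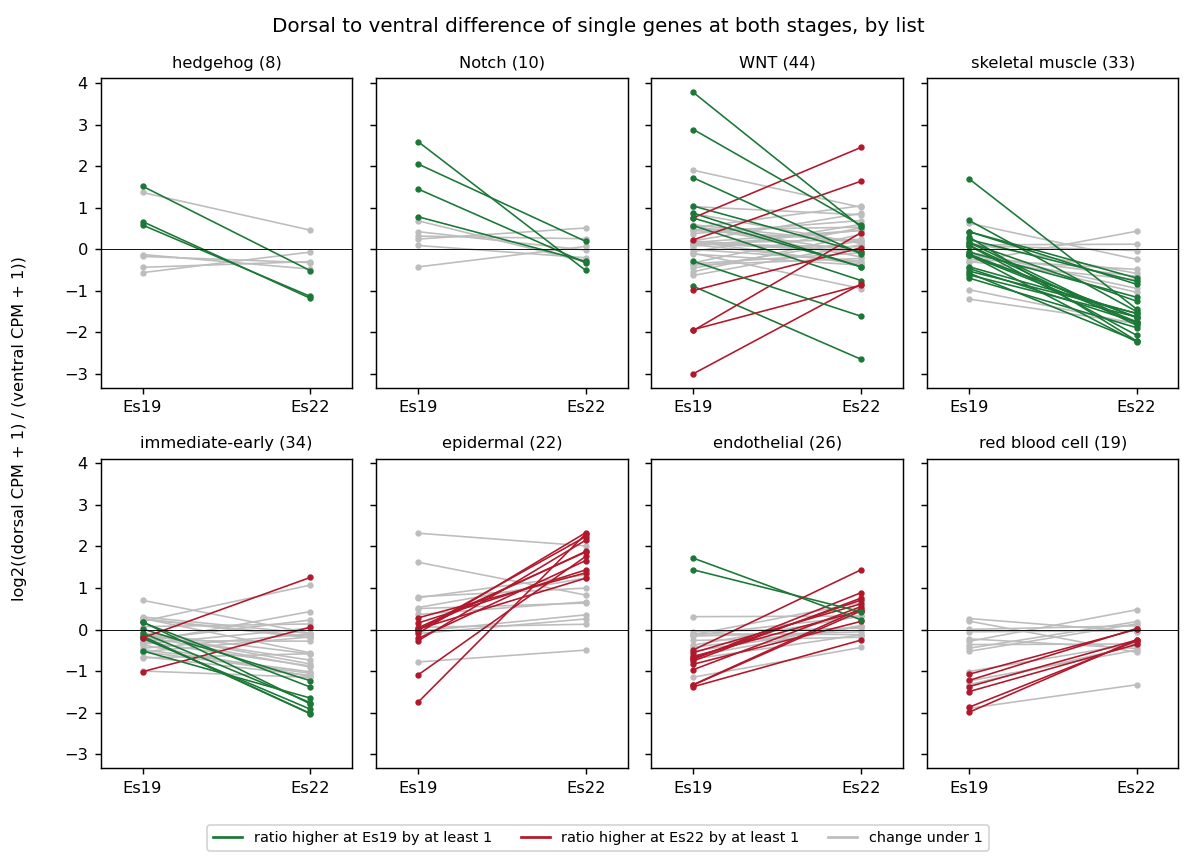
Each line joins the log2 dorsal to ventral difference of 1 gene at Es19 and at Es22, by list. The number of genes with a mean of at least 1 CPM is in brackets. Green lines (ratio higher at Es19 by at least 1) lead down in the hedgehog, Notch, muscle and immediate-early panels. Red lines (ratio higher at Es22 by at least 1) lead up in the epidermal, endothelial and red blood cell panels. The WNT panel holds both, as do the immediate-early panel, with 2 red lines, and the endothelial panel, with 2 green lines.

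Other genes that were high in Es22 dorsal dermis are not on the epidermal list, and the part of the epidermal transcripts in them was not tested. They include further genes of epithelium, the keratin KRT4 with 0.929 against 1.49 CPM and then 162 against 22.7 CPM (-3.15) and the cell envelope protein periplakin (PPL) with 1.55 against 3.39 CPM and then 120 against 28.6 CPM (-2.82). KIAA1324 had 1.32 CPM in dorsal against 0.814 CPM in ventral dermis at Es19, then 29.1 against 0.929 CPM at Es22 (-3.61). ECEL1, a membrane endopeptidase, had 1.63 against 0.746 CPM and then 21.1 against 0.516 CPM (-3.28). In KIAA1324 and ECEL1, 1 library was high and the other 3 were below 2 CPM. SPOCK1, a secreted proteoglycan, had 1.32 against 0.882 CPM and then 14.1 against 1.44 CPM (-2.33). AURKB, a kinase of mitosis, had 3.10 against 3.19 CPM and then 75.2 against 18.5 CPM (-2.0). Of 49 cell cycle genes with a row, 3 passed the threshold in either direction (6.12%, near the 8.19% of all rows). Their median change was 0.22. The most negative change of all, -6.85, was that of the row gene16783, which has no symbol, with 4.95 and 0.0679 CPM at Es19 and 2774 and 3.30 CPM at Es22. The Es19 ventral value is that of a single read.

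Genes whose direction was opposite at the stages by at least 1 on each side were few. Of the 15 rows, 10 that have a symbol and reach 10 CPM in a library are named here, and 8 of these 10 had their ventral level higher at Es19 and their dorsal level higher at Es22. Besides DSP, KRT8 and MSX2 they were GSTA3, a glutathione transferase, OXTR, the oxytocin receptor, SELENBP1, a selenium-binding protein, ITGA10, a collagen-binding integrin chain, and S100A16, a calcium-binding protein. SELENBP1 had 25 CPM in dorsal against 52.7 CPM in ventral dermis at Es19, then 325 against 68.4 CPM at Es22. Its ventral excess was 2.11-fold (1.85 to 2.41) at Es19 and its dorsal excess 4.76-fold (4.38 to 5.18) at Es22. GSTA3 had 2.48 against 13.3 CPM and then 46.8 against 12.8 CPM, and OXTR 4.49 against 13.8 CPM and then 22.6 against 5.16 CPM. For SELENBP1 and GSTA3 the ventral level was nearly the same at both stages, at 1.3 and 0.962 times, and the dorsal level was 13.0 and 18.9 times its Es19 value. ITGA10, 11.8 against 25.2 CPM and then 20.4 against 6.6 CPM, moved more in ventral dermis. The other 2 were RDH10 and MYH7, which were higher in dorsal dermis at Es19.

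Endothelial genes were lower in dorsal dermis at Es19 and somewhat higher there at Es22. Of 26 with a row, 11 had a ratio higher at Es22 and 2 a ratio higher at Es19 (50% in all, against 8.19% of all rows). The median log2 difference of the 26 went from -0.54 at Es19 to 0.32 at Es22. The VEGF receptor KDR had 19.7 CPM in dorsal against 50.7 CPM in ventral dermis at Es19, then 77.6 against 54.4 CPM at Es22 (-1.83), and the cadherin of endothelial junctions CDH5 32.7 against 64.6 CPM and then 114 against 77.4 CPM (-1.52). Ventral levels were close at both stages, at 1.07 and 1.20 times, and dorsal levels were 3.95 and 3.49 times their Es19 value. LYVE1, a receptor of lymphatic endothelium, and VWF had changes of -1.78 and -1.93. SOX18 and the angiopoietin receptor TEK were the 2 past the threshold in the other direction. SOX18 had 111 against 33.1 CPM and then 96.9 against 82.2 CPM (1.48), and TEK, which was higher in dorsal dermis at both stages, changed by 1.01.

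Red blood cell genes were low in Es19 dorsal dermis. Of 19 with a row, 6 had a ratio higher at Es22 and 0 a ratio higher at Es19 (31.6%, against 8.19% of all rows). TAL1 (-1.12), 1 of the 6, is counted in the endothelial list too. The globin gene HBA1 had 465 against 1701 CPM at Es19 and 8092 against 9774 CPM at Es22, and HBZ had 344 against 1371 CPM and then 2235 against 2646 CPM. The ventral excess went from 3.66-fold to 1.21-fold for HBA1 and from 3.98-fold to 1.18-fold for HBZ. The summed CPM of the list was 1418 in dorsal against 3744 in ventral dermis at Es19, then 11370 against 13663 at Es22. The pericyte and smooth muscle list had 5 of 10 with a ratio higher at Es22 and 1 with a ratio higher at Es19 (60% in all). The 1 toward Es19 was HEYL, which is counted in the Notch list too. RGS5, a pericyte gene, had 1.39 against 5.77 CPM and then 25.1 against 20.1 CPM. Of 20 macrophage and leukocyte genes 2 passed (10%, near the 8.19% of all rows), MRC1 and ITGB2, both toward Es22. MRC1 was no higher than 3.65 CPM in any library. Blood, endothelial and pericyte lists thus all had their lowest sum in Es19 dorsal dermis. This was not particular to them. The skeletal muscle, immediate-early, macrophage, matrix protease and ribosomal protein lists also had their lowest sum there, while the epidermal list had it in Es19 ventral dermis. COL11A2, TFPI2 and IGFBP2 were lowest in Es19 dorsal dermis too, and the part of vessels and blood in those genes was not tested.

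**Figure D5:**
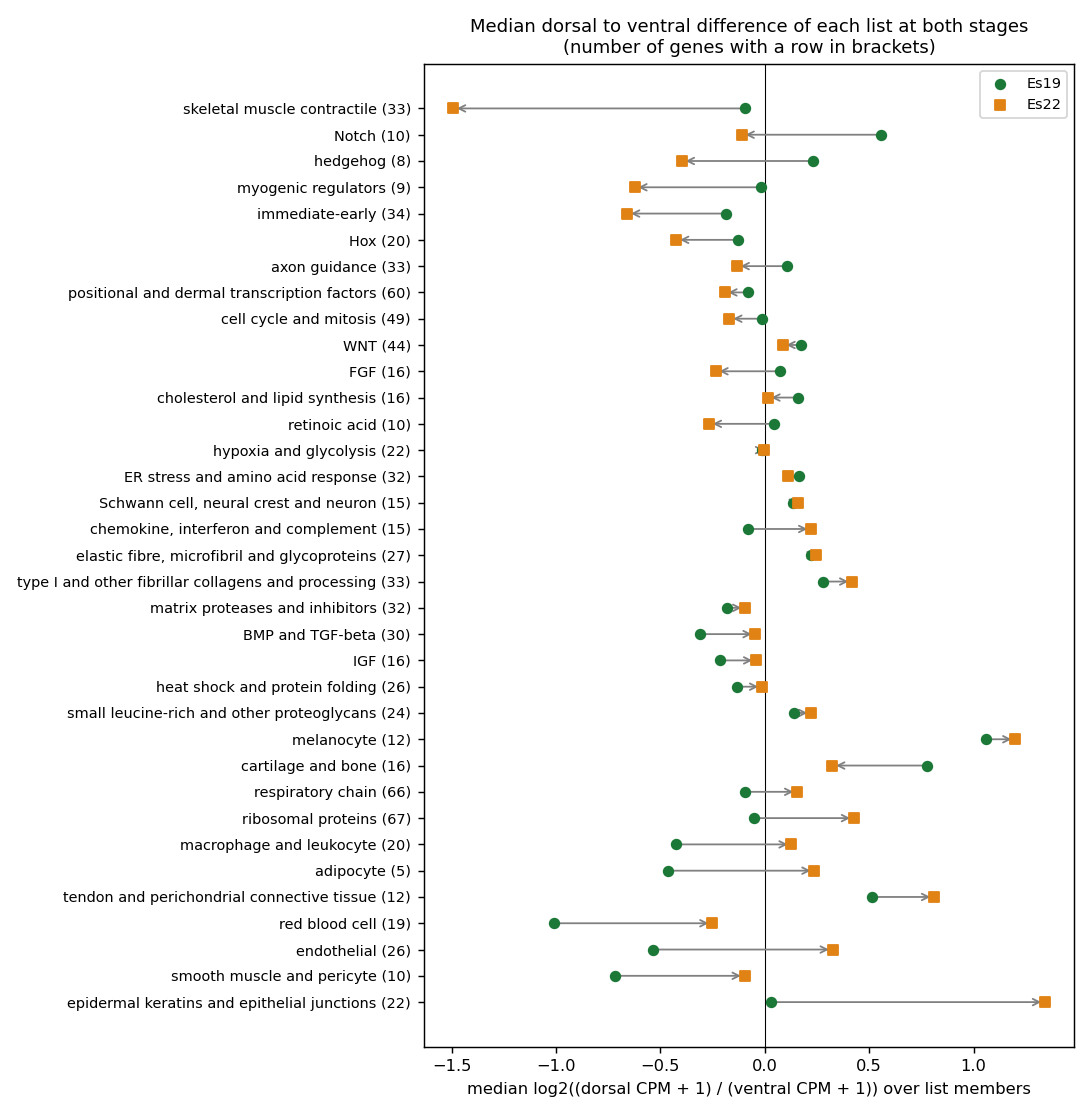
For each list the median log2 dorsal to ventral difference over its genes is given at Es19 (green circle) and Es22 (orange square), joined by an arrow toward Es22, in the order of the median change per gene, which need not equal the distance between the medians. Muscle, Notch and hedgehog lists lie at the end with ratios higher at Es19 (median change 1.12, 0.72 and 0.63), and the epidermal, smooth muscle and endothelial lists at the other (-0.90, -0.75 and -0.72).

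The remaining lists held members in different shares. Of 16 cartilage and bone genes, 2 passed toward Es19, RUNX3 and TRPS1 (1.29), and 3 toward Es22, COL11A2, CHAD and ALPL (-1.13). Of 12 tendon genes, EGR1 (1.14) passed toward Es19 and KERA and CILP2 (-1.07) toward Es22, and EGR1 is an immediate-early gene too. Of 15 chemokine, interferon and complement genes, 0 passed toward Es19 and 4 toward Es22. Of 32 genes of endoplasmic reticulum stress and 66 of the respiratory chain, 0 passed in either direction, and of 26 heat shock and folding genes 1 did. Hypoxia and glycolysis genes held 2 of 22, and the 12 melanocyte genes held 1, the melanosome glycoprotein GPNMB, which was higher in dorsal dermis at both stages, with 3.95 against 0.339 CPM at Es19 and 142 against 5.16 CPM at Es22 (-2.65). The counting intervals of its ratios, 4.67 to 37.4 at Es19 and 20.7 to 37.2 at Es22, overlapped. These shares can be read against the 8.19% of all rows.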

How the data were processed

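The authors deposited 1 table of CPM values with TMM normalization, handled here as a normalized signal, with 1 column for each of 4 dermis libraries (TruSeq, single reads). The submitters' processing notes name edgeR, HTSeq, Partek (version 3) and TopHat2 (version 2.1.0), while the paper's methods name STAR and state that replicate samples were prepared. The annotation release was not given in the sources used. TMM scales libraries by the bulk of genes, so the column sums differ, and TMM factors were 1.10, 1.27, 0.787 and 0.904 for dorsal and ventral dermis at Es19 and then at Es22. Reads (11701506, 11581288, 13220854 and 10722077) were recovered from the value of a single read in each column, and 99.8% to 99.9% of values came out whole within 0.05. Of the rows 1900 carry only a gene number, 300 a LOC symbol, and 287 share their symbol with another row, which lists summed.

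The log2(CPM + 1) difference understates changes of low genes. Rows had a mean of at least 1 CPM. The interaction of region and stage has 0 residual degrees of freedom, so no model was fitted. Named genes have a symbol and at least 10 CPM in 1 library, and are the 15 most extreme in each direction, the 10 most extreme of each class and direction, those opposite by at least 1 at both stages, and in each of 35 lists the members past the threshold and the 3 with the highest mean. Members of lists that fell short of the threshold or of 10 CPM, and the row gene16783, were added after their values were seen. Some genes that the rule takes are not reported here and were left out of the lists. Members and lists were chosen with earlier results of these data known. Alternatives were pseudocounts of 0.1 and 5, other filters, scalings, thresholds and bands, and the rows without 6 marker lists. Scripts were tested on simulated data. Calculations used scipy 1.17.1, pandas 2.3.3 and numpy 2.4.6 under Python 3.11.15, and plots matplotlib 3.10.9. Sequences and coordinates were not used here.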

Additional observations from a re-analysis of the deposited data

Results flagged for a closer look

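Of the genes named, 10 were at least 2-fold apart in one direction at Es19 and in the other at Es22. The difference between the stages was not tested, since each group is 1 library. Toward Es22 these were DSP (change -4.05), GSTA3 (-3.83), OXTR (-3.37), SELENBP1 (-3.28), MSX2 (-2.93), KRT8 (-2.85), ITGA10 (-2.53) and S100A16 (-2.44), and toward Es19 RDH10 (3.32) and MYH7 (3.14). DSP and KRT8 belong to the epidermal list and MYH7 to the muscle list, and both lists had their highest sum in 1 of the Es22 libraries.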

How the results depend on the processing

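No gene named past the threshold changed direction under any alternative. Of 211 such genes, 209 remained at or above 1 in size with a pseudocount of 0.1 and 175 with 5, 206 with scaling by the median ratio, 208 with the upper quartile and 210 without TMM factors. Without TMM factors the median log2 difference over all rows was -0.192 at Es19 and -0.186 at Es22, against -0.001 and -0.005. The shift was nearly the same at both stages and so left the change of the ratio nearly in place. No list median of at least 0.5 in size changed sign. Smaller medians were not part of that count. The count of 838 rows became 1309 with a pseudocount of 0.1, 378 with 5, 518 with a mean of at least 5 CPM and 122 at a threshold of 2. Ratios higher at Es19 numbered 581, 159, 225 and 46 in that order, against 341, and those higher at Es22 219 with a pseudocount of 5, 293 with the higher filter and 76 at a threshold of 2, against 497. Lost differences numbered 317 with a pseudocount of 0.1, 100 with 5, 128 with a band of 0.25 and 23 at a threshold of 2. Appeared differences numbered 97 with a pseudocount of 5, 91 with the higher filter, 110 with the band and 24 at the threshold. Reversed ones numbered 217, 30, 59, 164 and 14 with a pseudocount of 0.1 or 5, the filter, the band and the threshold, and those changed in size 132, 26, 131 and 10 with a pseudocount of 0.1 or 5, the band and the threshold. Small ones numbered 125, 171 and 51 with a pseudocount of 5, the filter and the threshold. The hedgehog median was 0.91 with the higher filter and 0.48 with a pseudocount of 5, against 0.63, and the red blood cell median -1.12 with a pseudocount of 0.1, against -0.68. Fewer rows pass under a higher pseudocount, filter or threshold by construction. No library could be left out, because the change needs all 4. No paired analysis was possible because the labels give no replicate numbers and 1 library per group.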

Other observations

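Of 67 cytosolic ribosomal protein genes with a row, 66 had a negative change, which is a dorsal to ventral ratio higher at Es22, with a median of -0.46, against 0.01 over all rows. Their median log2 difference was -0.05 at Es19 and 0.43 at Es22, and their summed CPM was 88099 in dorsal against 90881 in ventral dermis at Es19, then 124769 against 92131 at Es22. None of these 66 reached the threshold. The single gene with a positive change was RPL3L, a form known from striated muscle of mammals, which had 8.82 against 12.3 CPM and then 7.49 against 23.1 CPM (1.07). Of 66 respiratory chain genes, 50 had a negative and 16 a positive change, with a median of -0.22, and 0 reached the threshold.

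Of 15 chemokine, interferon and complement genes with a row, 4 passed the threshold (26.7%, against 8.19% of all rows), all toward Es22. CFD, which encodes factor D, had 61.0 CPM in dorsal against 147 CPM in ventral dermis at Es19, then 670 against 370 CPM at Es22 (-2.11). C7, a component of the membrane attack complex, had 3.25 against 6.92 CPM and then 42.7 against 19.9 CPM (-1.96), so both were higher in ventral dermis first and in dorsal dermis later. The other 2 that passed were the interleukin 1 receptor IL1R1 (-2.40) and the peptide transporter TAP1 (-1.05). The other complement genes of the list with a row did not pass, with changes of 0.05 for C3, -0.02 for CFB and 0.89 for MASP1.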
